A study of Mus musculus with 2 samples.

Results

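The promoters described here are 229 CpG-rich promoters of autosomal protein-coding genes that were methylated in mouse myotubes in culture. They were selected on measured values. A promoter was the window of 1000 bp on either side of the annotated gene start, and it counted as CpG-rich where it held a 500 bp stretch with an observed to expected CpG ratio above 0.75 and a GC content above 55%. Of 20807 autosomal protein-coding promoters in GRCm38, 10146 were CpG-rich and 9744 of those were covered, with at least 10 CpG cytosines outside the restriction sites that had 5 or more reads in each library. The 229 had a methylation level of at least 50% in each of the libraries, which is 2.35% of the covered CpG-rich promoters. The level of a promoter is the share of methylated reads among all reads, summed over its cytosines. A read is counted at each cytosine it covers.

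Methylation of the cytosine in CpG is copied onto the new strand when DNA is replicated, and most CpGs of mammalian genomes carry it. CpG-rich promoters are the exception and are usually free of it in all tissues. Where they are methylated, the gene is usually silent, and the well-known cases are germ cell genes in body cells, the silent allele of imprinted genes and genes on the inactive X chromosome, which was left out here.

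Both libraries came from C3H mouse myoblasts that had been differentiated into myotubes, the multinucleate cells of muscle, and then transfected. The siCon library is from cells that received a control siRNA and the siH19 library from cells that received an siRNA against H19, a long non-coding RNA. Genomic DNA was taken 48 h after transfection and read by reduced representation bisulfite sequencing, which samples the CpG-dense ends of short restriction fragments. There was 1 library per group, so the spread between cultures is unknown and a culture cannot be told apart from its siRNA. The siCon library held 104999613 reads summed over cytosines with a median depth of 12, and the siH19 library 106372792 with a median of 13. The files hold DNA methylation alone and can bear on the labelled cell type only through promoters. Of 33 listed muscle genes 9 had a covered CpG-rich promoter. None of the 9 was in the methylated set, beside 2.35% of all covered CpG-rich promoters. A count of 0 in so few promoters does not set the list apart from that share. The median level of those 9 was 3.98% in siCon and 4.85% in siH19. The highest of them was Actn2, of the muscle Z-disc, at 47.4% and 51.7%, followed by Myod1 at 34.1% and 39.4%.

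The 250 bases before the start of 6 methylated promoters are printed to show what the methylated sequence looks like. They cover germ cell genes, developmental transcription factors and the promoter with the lowest level at its start. Each reads 5′ to 3′ on the strand of the gene, in GRCm38, and lies outside the gene. Capitals mark the CpGs whose level was measured in both libraries. Hormad1 lies at chr3:95559427-95559676 on the plus strand, Mael at chr1:166238748-166238997 on the minus strand, and Slc25a31 at chr3:40708605-40708854 on the plus strand. Hoxa5 lies at chr6:52204588-52204837 on the minus strand, Sox30 at chr11:45980060-45980309 on the plus strand, and Esrrg at chr1:187608541-187608790 on the plus strand.
Hormad1: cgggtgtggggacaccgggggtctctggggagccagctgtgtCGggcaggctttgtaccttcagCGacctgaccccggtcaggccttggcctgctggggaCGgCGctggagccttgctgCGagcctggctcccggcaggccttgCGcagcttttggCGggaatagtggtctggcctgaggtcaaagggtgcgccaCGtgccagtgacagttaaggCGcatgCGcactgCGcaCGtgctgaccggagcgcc
Mael: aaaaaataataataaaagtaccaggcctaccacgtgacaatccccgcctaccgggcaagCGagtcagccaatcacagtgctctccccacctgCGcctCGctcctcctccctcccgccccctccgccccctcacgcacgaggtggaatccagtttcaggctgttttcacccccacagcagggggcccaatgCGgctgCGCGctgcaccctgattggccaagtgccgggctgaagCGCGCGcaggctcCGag
Slc25a31: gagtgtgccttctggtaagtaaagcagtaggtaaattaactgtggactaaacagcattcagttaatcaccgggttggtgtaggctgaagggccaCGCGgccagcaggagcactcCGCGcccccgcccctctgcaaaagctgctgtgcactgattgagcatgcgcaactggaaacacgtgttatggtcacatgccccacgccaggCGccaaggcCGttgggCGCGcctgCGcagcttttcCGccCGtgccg
Hoxa5: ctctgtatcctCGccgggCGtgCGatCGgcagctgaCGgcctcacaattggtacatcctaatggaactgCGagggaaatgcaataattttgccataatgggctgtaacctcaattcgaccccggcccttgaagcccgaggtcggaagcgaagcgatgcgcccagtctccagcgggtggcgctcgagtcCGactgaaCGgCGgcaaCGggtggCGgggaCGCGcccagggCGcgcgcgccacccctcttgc
Sox30: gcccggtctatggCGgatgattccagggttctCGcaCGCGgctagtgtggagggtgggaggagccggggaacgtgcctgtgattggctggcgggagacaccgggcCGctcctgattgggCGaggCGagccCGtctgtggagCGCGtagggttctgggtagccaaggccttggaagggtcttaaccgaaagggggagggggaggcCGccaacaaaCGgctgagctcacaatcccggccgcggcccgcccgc
Esrrg: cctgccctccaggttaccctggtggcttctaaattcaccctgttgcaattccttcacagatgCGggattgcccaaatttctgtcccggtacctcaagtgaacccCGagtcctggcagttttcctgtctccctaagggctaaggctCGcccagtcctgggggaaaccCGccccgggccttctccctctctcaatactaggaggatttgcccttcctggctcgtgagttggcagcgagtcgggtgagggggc

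In the printed stretch of Slc25a31, which encodes the ADP/ATP carrier of sperm, 22 cytosines of 11 CpGs were read. Their level was 95.8% in siCon and 96.7% in siH19, and the lowest single cytosine stood at 82.9% and 72.2%. Hoxa5, a homeobox gene of anterior-posterior patterning, had 91.0% and 94.9% over 19 cytosines of 14 CpGs. Sox30, a transcription factor of male germ cells, had 93.6% and 95.9% over 20 cytosines of 12 CpGs. These 3 stretches were methylated at nearly every CpG that was read. Hormad1, a protein of the meiotic chromosome axis, had 79.7% and 80.5%, with single cytosines from 33.3% to 100% in siCon. Mael, which acts in the piRNA pathway of germ cells, had 74.3% in siCon and 87.4% in siH19 over 10 cytosines, from only 144 and 135 reads. In both, methylated and partly methylated CpGs lay side by side. Esrrg, an orphan nuclear receptor gene, had 14.4% and 18.4% over 8 cytosines of 4 CpGs, although its whole promoter reached 59.7% and 62.2%.

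**Figure D1:**
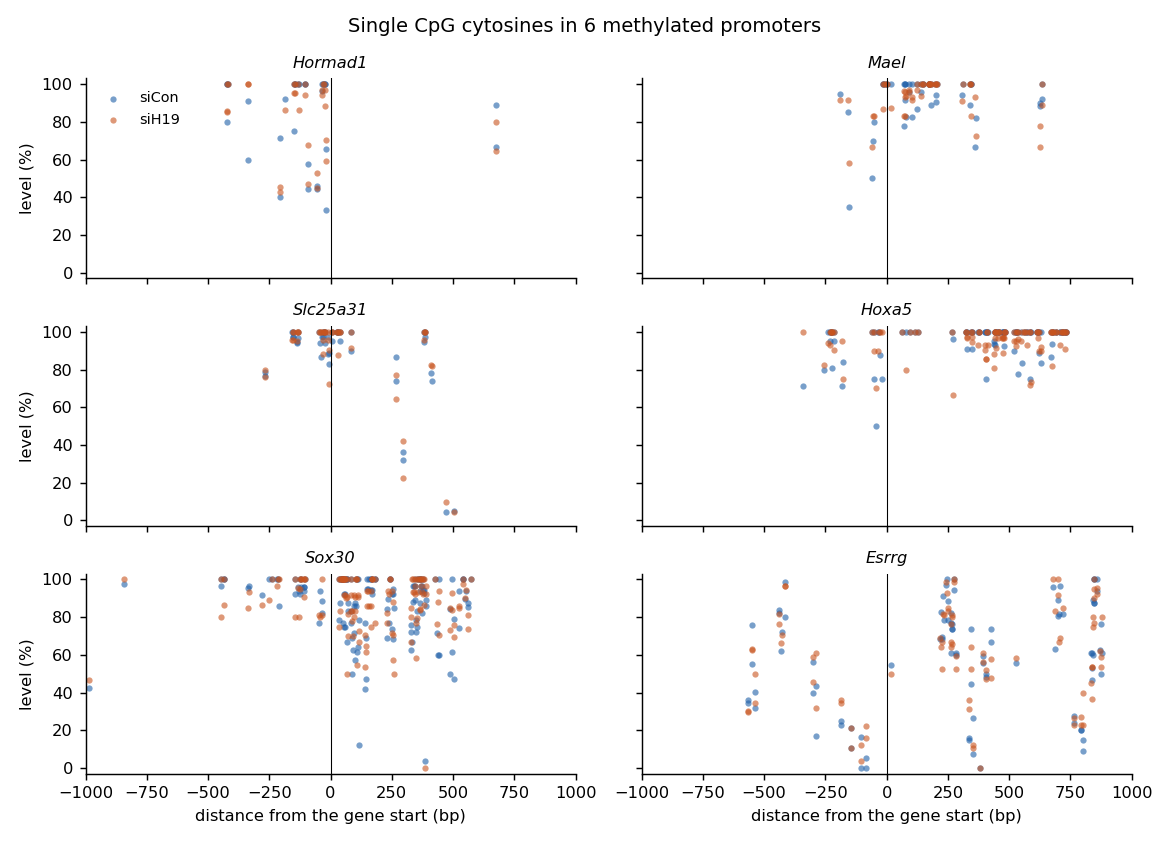
Methylation level (%) of each CpG cytosine outside restriction sites, by distance from the gene start in bp along the gene's direction, in 6 methylated promoters, with siCon in blue and siH19 in orange. In the 250 bp before the start Slc25a31, Hoxa5 and Sox30 have 95.8%, 91.0% and 93.6% in siCon and Esrrg has 14.4%, while single cytosines farther along Slc25a31 and Sox30 are far lower.

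Across the 9744 covered CpG-rich promoters, low methylation was the rule. Of these, 7897 (81.0%) were below 10% in both libraries and 8646 (88.7%) were below 20%. A further 657 (6.74%) lay between 20% and 50% in both. The 229 methylated promoters had a median level of 66.1% in siCon, with a range of 50.03% to 97.9%, and of 67.7% in siH19, with a range of 50.1% to 97.4%. The 9515 other promoters had medians of 1.25% and 1.23%. The gap between these groups is fixed by how they were chosen.

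The methylated promoters did not form a separate peak of fully methylated sequence. In siCon 75 of them lay between 50% and 60%, 58 between 60% and 70%, 41 between 70% and 80%, 33 between 80% and 90%, and 22 above 90%. In both libraries 47 were at 80% or more and 19 at 90% or more. Within a promoter single cytosines varied, with a median SD of 23.9 points in siCon. In the median promoter 40.4% of cytosines were at 80% or more in siCon and 4.17% were below 20%. A promoter had a median of 50 compared cytosines (10 to 197) and a median of 1114 reads in siCon (153 to 4970). Pooled over 13138 cytosines, the level was 66.8% in siCon, with a Wilson 95% interval of 66.6% to 66.9%, and 67.7% in siH19 (67.6% to 67.9%). Such intervals cover counting error only, and they take the calls of a read at neighbouring CpGs as independent.

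The selection cut through a continuous range. Just inside it were 0610040J01Rik at 50.03% in siCon and 52.7% in siH19, Perp, a membrane protein gene of the p53 response, at 51.2% and 50.1%, and Cdkl4, a kinase gene, at 53.1% and 50.6%. Just outside were Hoxa6 at 55.2% and 49.96%, Pom121l2 at 49.9% and 52.5%, and Samd12 at 49.7% and 51.0%. Another 17 promoters reached 50% in siCon alone and 33 in siH19 alone.

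**Figure D2:**
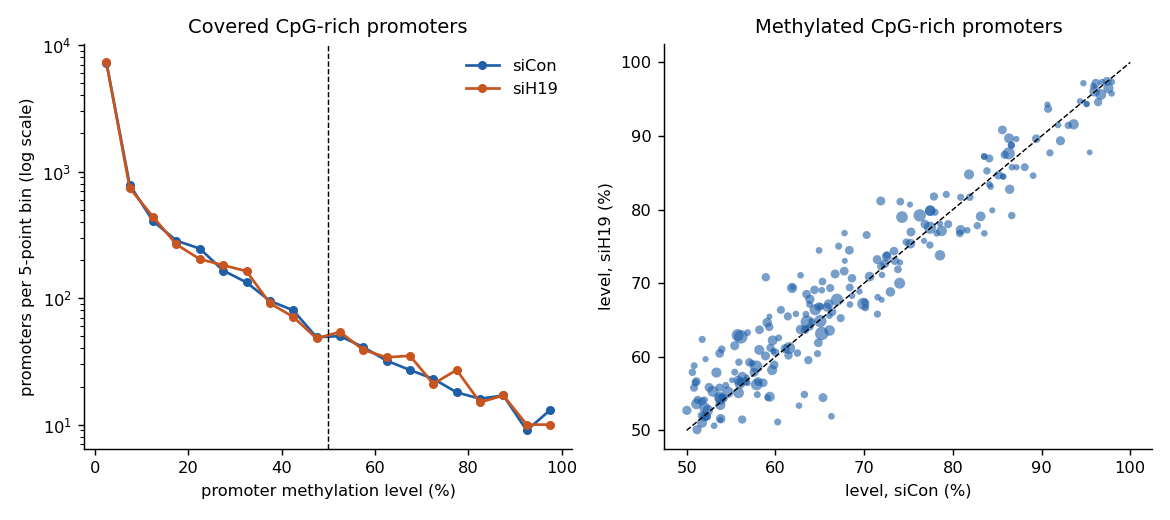
Left, number of covered CpG-rich promoters per 5-point bin of methylation level in siCon (blue) and siH19 (orange) on a log scale, with a dashed line at 50%. Right, level of the 229 methylated promoters in siCon and siH19 (%), with point area rising with the number of cytosines compared and the dashed line at equal levels. The bins just below and just above 50% hold 49 and 50 promoters in siCon and 48 and 54 in siH19. The 229 points lie along the line of equal levels.

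Germ cell genes had the highest share of methylated promoters among the gene lists with more than 6 covered promoters. Of 27 covered CpG-rich promoters of germline and meiosis genes, 16 (59.3%) were methylated, beside 2.35% of all covered CpG-rich promoters. The group's median was 64.1% in siCon and 71.1% in siH19. The 16 ranged from 56.9% to 97.9% in siCon, with a median of 84.9%. Msh4, which stabilises meiotic crossover intermediates, stood at 97.9% in siCon (Wilson 95% interval 95.96% to 98.9%) and 97.3% in siH19. Ddx4, the germ cell RNA helicase also called Vasa, stood at 96.4% and 94.6%. Tex14, needed for the bridges between germ cells, stood at 95.1% and 94.3%, from 17 cytosines. All 3 were methylated on nearly every read.

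Genes of the piRNA pathway and of germ cell translation were in the same set. Tdrd1, a tudor protein that binds piRNA pathway proteins, had 95.4% in siCon and 87.8% in siH19. It had 10 cytosines, with 153 reads summed over them in siCon. Mael had 90.7% and 93.7% over its whole window. Boll, an RNA-binding protein of spermatogenesis, had 83.1% and 79.1%. Its relative Dazl had 80.9% and 77.2%. Tdrd6, a tudor protein of the spermatid chromatoid body, was lower, at 67.8% and 71.6%. Dmc1, the recombinase of meiosis, was the lowest of the 16 in siCon, at 56.9% and 56.4%.

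The other 11 germline promoters spread in siCon from near 0 to just under the limit. Msh5, whose product pairs with that of Msh4, had 0.5999% in siCon and 1.03% in siH19. Prdm9, which sets the sites of meiotic recombination, had 13.5% and 9.74%. Syce2, of the synaptonemal complex, had 48.5% and 52.3%. Methylation of CpG-rich germ cell promoters in these cells was therefore common but not general.

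Clustered protocadherins, cell surface proteins of which each neuron uses a different few, were methylated at 4 of 6 covered promoters (66.7%). Pcdhga5 had 86.7% in siCon and 85.8% in siH19, Pcdhga8 had 81.6% and 77.2%, Pcdhga11 had 74.1% and 81.1%, and Pcdhga10 had 62.7% and 53.4%. The others were Pcdhac2, at 21.9% and 19.9%, and Pcdhgc3, at 0.545% and 0.838%. The group holds few covered promoters, since 9 of its 15 CpG-rich promoters did not reach the coverage minimum.

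Among imprinted genes, which are expressed from the allele of a given parent, 4 of 25 covered promoters (16%) were methylated. Nnat, a small membrane protein gene expressed from the paternal allele, had 97.4% in both libraries over 66 cytosines. Plagl1, a zinc finger gene, had 78.0% in siCon and 79.6% in siH19. Grb10, an adaptor of insulin receptor signalling, had 60.4% and 62.6%, and Nap1l5, an intronless gene, had 59.8% and 60.8%. The group's median was 31.9% in siCon and 33.7% in siH19, far above the median of 1.25% over the other covered CpG-rich promoters. At partial levels, such as those of Grb10 and Nap1l5, a mixture of a methylated and an unmethylated allele cannot be told apart from partial methylation of both. Nnat was not at such a level, since nearly every read there was methylated.

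Of 16 promoters of epithelial genes 3 (18.8%) were methylated. Marveld2, a protein of tricellular tight junctions, had 68.4% in siCon and 69.4% in siH19. Its relative Marveld3 had 65.4% and 54.5%, and Epcam, an epithelial adhesion molecule, had 59.3% and 65.5% from 12 cytosines. The group's median was 31.7% in siCon. Cdh1, the epithelial cadherin, had 39.1% and 34.9% and so fell short of the limit. Of 6 pluripotency genes 1 was methylated, Utf1, a chromatin factor of embryonic stem cells, at 53.7% and 60.5%. Sox2 had 21.7% and 20.9%, and Klf4 had 0.753% and 0.787%.

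Hox genes and other developmental transcription factors held single heavily methylated promoters amid lowly methylated ones. In the Hox clusters 3 of 26 (11.5%) were methylated. The median of the 26 was 19.8% in siCon and 22.5% in siH19, above the medians of 1.25% and 1.23% over the other covered CpG-rich promoters. Hoxa5 had 96.7% in siCon and 95.6% in siH19 over 110 cytosines, and Hoxa2 had 95.8% and 96.8% over 23. Hoxc8 had 51.8% and 62.4%. Below the limit, Hoxd1 had 46.7% and 47.0%. Hoxa7 had 1.42% and 0.842%, and Hoxa11 had 0.796% and 0.916%, so that neighbours in the same cluster differed by over 90 points. Of 108 developmental transcription factors of the homeobox, forkhead, Sox, T-box and related families 5 (4.63%) were methylated. Tbx1, a T-box gene of pharyngeal development, had 90.9% and 87.7%, Sox30 had 86.3% and 87.6%, Nkx6-2, a homeobox gene of neural development, had 66.1% and 63.6%, Foxd3, a neural crest factor, had 59.6% and 58.2%, and Foxe1, a thyroid factor, had 57.1% and 59.2%.

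Ribosomal protein, zinc finger and solute carrier genes had between 1.49% and 2.40% methylated promoters, beside 2.35% over all covered promoters. Of 67 ribosomal protein promoters 1 was methylated (1.49%), that of Rpl10l, the intronless testis copy of Rpl10, at 64.1% in siCon and 64.8% in siH19. Of 184 zinc finger promoters 4 were (2.17%). Zfp541, a gene of meiotic cells, had 83.6% and 76.8%, Zfp263 had 77.9% and 81.8%, Zfp503 had 59.9% and 58.9%, and Zfp819 had 53.8% and 51.4%. Of 167 solute carrier promoters 4 were (2.40%). Slc25a31 had 88.1% and 85.8%, Slc5a5, the thyroid iodide transporter, had 85.8% and 87.4%, Slc25a21, a mitochondrial oxodicarboxylate carrier, had 58.6% and 56.5%, and Slc6a16 had 52.0% and 54.1%.

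Of 24 replication-dependent histone promoters 2 were methylated, Hist1h2aa and Hist1h2ba, which encode the histone pair of testis chromatin and share 1 stretch of DNA. The 17 cytosines of that stretch had 85.7% in siCon and 84.5% in siH19. No collagen promoter of 14 was methylated, and none of 22 promoters of genes often methylated in cultured or tumour cells. Counts of 0 in so few promoters do not set these lists apart from the share over all covered promoters. The median level was 11.5% in siCon and 10.7% in siH19 for the 14, and 6.48% and 4.57% for the 22. The other covered CpG-rich promoters had medians of 1.25% and 1.23%. Among the 22, Hic1 had 43.7% and 49.5%. Of the 5 covered genes that the study followed up, Bmp8b, a bone morphogenetic protein gene, was methylated, at 78.6% and 73.8%. Foxa2 had 39.97% and 40.4%, Cdt1 had 1.38% and 0.263%, Setd2 had 0.334% and 0.987%, and Casp2 had 0.232% and 0.267%.

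**Figure D3:**
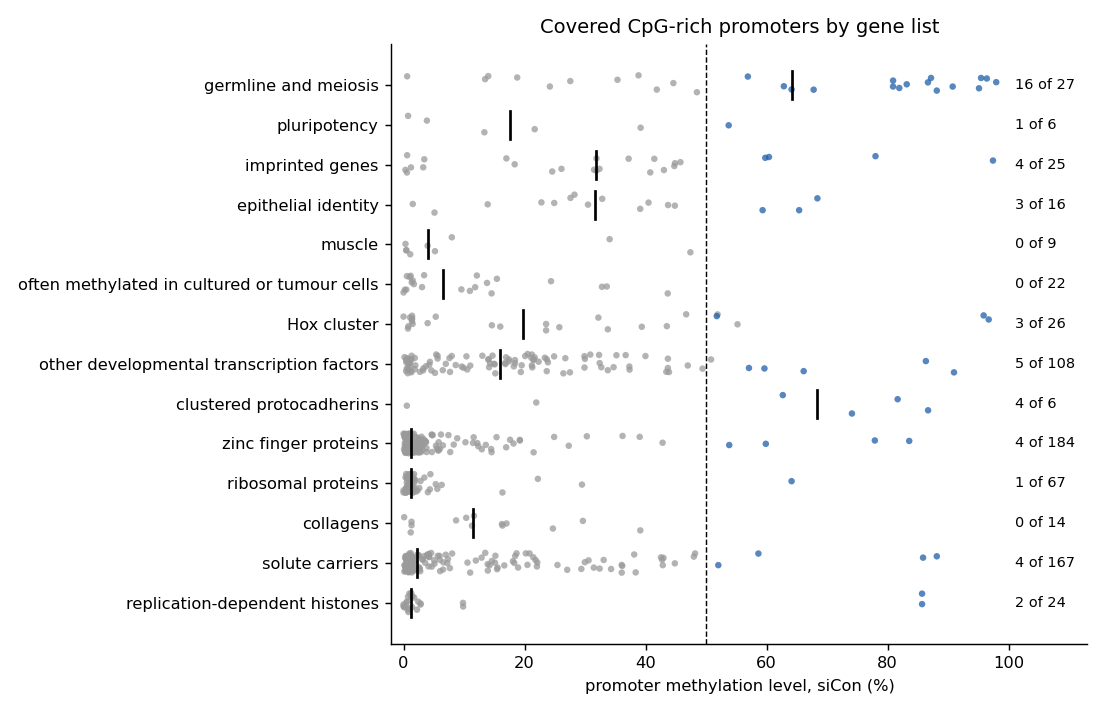
Methylation level in siCon (%) of each covered CpG-rich promoter, by gene list, with methylated promoters in blue, others in grey, the list's median as a black bar, the 50% limit dashed and the count of methylated over covered promoters at the right. Germline genes (16 of 27) and clustered protocadherins (4 of 6) are the lists with a median above 50%.

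Methylation did not stop at the start of transcription. Of the 229 promoters 183 had at least 3 compared cytosines within 200 bp of the start. There 153 of 183 (83.6%) had 50% or more in both libraries, 44 had 80% or more, 19 lay between 20% and 50%, and 1 was below 20%. That promoter was Esrrg, at 16.2% in siCon and 19.17% in siH19. Among the other CpG-rich promoters 7867 of 8549 (92.0%) were below 20% in this core. The pooled core level was 65.6% and 66.4% in the methylated set. Since these cytosines are part of those that chose the promoters, the level in the core is a description.

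After Esrrg, the lowest cores were those of Gm43517 at 30.8% in siCon and 35.6% in siH19, Grb10 at 31.2% and 35.8%, and Oxct2a, a ketone body enzyme gene of the testis, at 33.7% and 33.5%. In these the methylated sequence lay to the side of the start. The highest cores were near complete methylation. Pabpc6, a poly(A)-binding protein gene, had 99.3% and 94.3%, Naa11, a testis N-acetyltransferase gene, had 98.7% and 97.6%, 4933428G20Rik had 98.6% and 97.4%, and Nsd1, a histone H3 methyltransferase gene, had 98.3% and 96.2%.

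Cytosines between 1 and 3 kb from the start did not enter the choice. Upstream, 24 of 38 methylated promoters with enough cytosines (63.2%) had 50% or more in both libraries, beside 575 of 1350 others (42.6%). Downstream these counts were 42 of 77 (54.5%) and 790 of 2467 (32.0%). By 200 bp bin, the mean over methylated promoters in siCon ran from 63.0% to 69.7% within the window. The mean over the others in siCon fell to 4.15% in the bin before the start and rose to 50.9% at the upstream end of the 3 kb. Beyond 1 kb the order of the sets varied between bins, and from 2200 to 2400 bp downstream the methylated set had 33.3% and the others 54.9% in siCon. The methylated set had only 11 to 65 promoters per bin there.

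**Figure D4:**
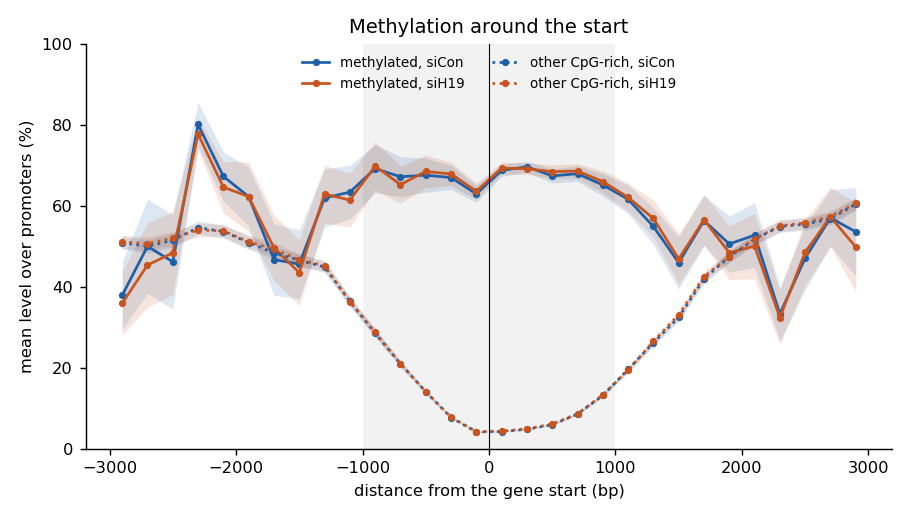
Mean methylation level (%) in 200 bp bins by distance from the gene start, in methylated (solid) and other CpG-rich promoters (dotted), in siCon (blue) and siH19 (orange). Bands are the mean ± SE over the promoters with data in the bin, and grey marks the window used for the choice. The others dip to 4.15% before the start, where the methylated promoters have 63.0% in siCon.

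Cytosines inside the restriction sites were also left out of the choice. On the strand that end repair does not rebuild, 1009 such cytosines in methylated promoters had 53.5% (52.8% to 54.1%) in siCon and 55.8% (55.1% to 56.4%) in siH19. In the other promoters the values were 8.66% and 7.06%. By promoter, 89 of 176 methylated ones (50.6%) reached 50% in both libraries, against 31 of 8326 others (0.372%). On the rebuilt strand the methylated set had 95.1% and 96.6% and the others 93.7% and 95.9%. Both sets were high there, and these cytosines were used only in the alternative that kept all restriction-site cytosines.

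The methylated promoters were slightly less CpG-dense than the others. Their densest stretch had a median observed to expected ratio of 0.898, beside 0.943 in the others, and a median GC content of 66.2% beside 67%. The window held a median of 91 CpGs beside 102. The CpG-rich stretch covered the start itself in 180 of 229 (78.6%) and in 8729 of 9515 others (91.7%). Repeat-masked sequence made up a median of 10.0% and 11.1%. Another protein-coding gene started in the window of 14 methylated promoters (6.11%) and of 2068 others (21.7%). The 14 form 7 overlapping pairs, such as Rad51c and Tex14, so the 229 promoters are 222 separate stretches.

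The 5 promoters with the most CpGs in their window lay between 55.8% and 76.3% in siCon. Shisa6, an auxiliary subunit of glutamate receptors, had 232 CpGs in its window and 56.1% in siCon and 62.7% in siH19. Ajap1, an adherens junction protein gene, had 212 CpGs and 76.3% and 79.2%, and Trank1 had 212 and 64.5% and 66.4%. Nrg3, an ErbB4 ligand, had 207 CpGs and 57.9% and 56.2%, and Hs3st4, a heparan sulfate sulfotransferase, had 200 and 55.8% and 62.9%.

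Genes of a single exon were frequent. Their number was counted after the list of promoters had been seen. Of the 229 genes 48 (21%) had 1 exon in every annotated transcript, against 288 of 9515 others (3.03%). The 48 had a median of 71.7% in siCon and 74.5% in siH19, and the remaining 181 had 65.2% and 67.1%. Several are retrocopies, intronless genes made from the RNA of a parent gene, which are used in the testis. Papolb, a testis poly(A) polymerase, had 92.1% and 89.3%. Pabpc6 had 93.0% and 91.4%, D1Pas1, a testis RNA helicase, had 86.6% and 79.2%, Rbmxl2 had 86.3% and 89.7%, and Pdha2, the testis subunit of pyruvate dehydrogenase, had 67.8% and 76.8%. The single-exon genes also included Gpr62, an orphan receptor gene at 95.99% and 96.1%, and Foxd3. How reads were shared between a retrocopy and its parent was not tested.

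Sequence motifs were counted on both strands from 250 bases before the start to 50 after it. The E-box CACGTG stood in 35 of 229 methylated promoters (15.3%) and in 1026 of 9515 others (10.8%). Among the 16 germline promoters 6 held it, those of Fkbp6, Hormad1, Mael, Slc25a31, Stk31 and Tdrd1, and so did 2 of the 11 other germline promoters (18.2%). In the printed sequences it begins 57 and 20 bases before the start of Hormad1, 77 before that of Slc25a31 and 220 before that of Mael. In Hormad1 the CpG inside both copies was measured. TTCCCGC, an E2F-type motif, stood in 26 (11.4%) and 917 (9.64%), and Hormad1 holds it 95 bases before the start. TATAAA stood in 22 (9.61%) and 566 (5.95%), TGACGTCA in 5 (2.18%) and 362 (3.80%), and GCCATNTT, a YY1-type motif, in 6 (2.62%) and 775 (8.15%). Such matches are a description of letters.

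For 19 of the genes another annotated start over 2 kb away was covered as well. At 12 of these genes at least 1 such start was below 20% in both libraries. Mtx1, of the mitochondrial outer membrane, had 89.1% in siCon and 84.6% in siH19 at its gene start and 0.514% and 0.676% at a start 12658 bp away. Pdgfa, a growth factor gene, had 59.1% and 64.7%, and 0.726% and 0.506% at a start 2333 bp away. Nsd1 had 93.6% and 91.6%, and 13.5% and 17.6% at a start 2293 bp away. In these 3 genes the methylated start and a lowly methylated start lay within 12658 bp of each other. At 3 genes all other covered starts were at 50% or more, for example St5, whose other starts share cytosines and had 71.8% and 76.2%.

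The comparison of the libraries asked whether these promoters gained or lost methylation after the siRNA against H19. No promoter of the 229 met the rule for a called difference, an adjusted p under 0.05 with at least 10 percentage points. The test was a two-sided Cochran-Mantel-Haenszel chi-square test of methylated and unmethylated reads with each cytosine as a stratum, Benjamini-Hochberg adjusted over all 16531 promoters tested. It compares 2 libraries and not 2 conditions. A read over several CpGs enters several strata as if independent, so the p-values may be too small. Over all tested promoters 63 were called (0.381%), 45 higher in siH19 (0.272%) and 18 lower (0.109%). Without the minimum of 10 points 16 of the 229 (6.99%) had an adjusted p under 0.05, beside 6.82% of all tested promoters, so the share in the set was near the background. An unadjusted p under 0.05 was found for 43 (18.8%), beside 19.8% of all tested promoters. Fisher's exact test on summed reads called 4 (1.75%), beside 1.93%, and gave an unadjusted p under 0.05 for 71 (31.0%), the same share as over all tested promoters. In a quasi-binomial test with cytosines as units 0 of the 229 had an adjusted p under 0.05, beside 161 of 9515 others (1.69%). It gave an unadjusted p under 0.05 for 6 (2.62%), beside 10.8% of all tested promoters. The quasi-binomial test has no term for the cytosine, so spread between cytosines counts as error. In siCon the median SD over cytosines was 23.9 points in the 229 and 3.49 in the other CpG-rich promoters. The shares from this test are therefore not a like comparison. The choice itself limits these differences, since a promoter that was under 50% in either library, such as Hoxc12 at 51.9% in siCon and 38.9% in siH19, is not in the set.

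Differences were taken with the same weight on a cytosine in both libraries, so that a change in which cytosines were read deeply does not enter. They can therefore differ from the subtraction of the levels given above. Over the 229 promoters the difference, siH19 minus siCon, was 0.572 ± 2.92 points (SD over promoters, which are not replicates), with a median of 0.722 and a range of -8.76 to 8.26. In all 131 (57.2%) were higher in siH19 and 98 lower, beside 55.8% higher over all tested promoters. The median size of the difference was 1.79 points, and 0.396 points in the other CpG-rich promoters, whose levels lie mostly near 0.

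The largest differences among the 16, which are named after their values were seen, went both ways. Rprm, a cell cycle arrest gene of the p53 response, had 59.1% in siCon and 54.5% in siH19. The difference over 23 cytosines was -8.76 points (chi-square test, adjusted p = 0.0419). Dsc2, a desmosomal cadherin gene, had 50.8% and 58.8%, and differed by 8.06 points over 27 cytosines (chi-square test, adjusted p = 0.0345). Utf1 differed by 7.20 points over 62 cytosines (chi-square test, adjusted p = 0.0157). Ppp1r36, a phosphatase regulatory subunit gene, had 58.9% and 70.8% and differed by 6.46 points (chi-square test, adjusted p = 0.0115). On both strands these 4 moved the same way, though Utf1 moved by 15.3 points on the plus strand and 0.906 on the minus strand.

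Marveld3 differed by -5.87 points (chi-square test, adjusted p = 0.00795), and Wt1, a zinc finger gene of kidney and gonad, had 59.4% and 54.6% and differed by -5.58 points (adjusted p = 0.00783). Asap2, an Arf regulator gene, differed by 4.80 points, Sstr4, a somatostatin receptor gene, by 4.63, Hs3st4 by 4.50, Tox3 and 4933416C03Rik by 3.68 each, Shisa6 by 3.35 and Gm10190 by -3.08. Fam217b and Ppp1r3d start in the same stretch and share their cytosines, with a difference of 4.28 points. Gm45844 differed by 3.73 points although its levels were 66.4% in siCon and 66.1% in siH19, since reads fell on other cytosines in each library.

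**Figure D5:**
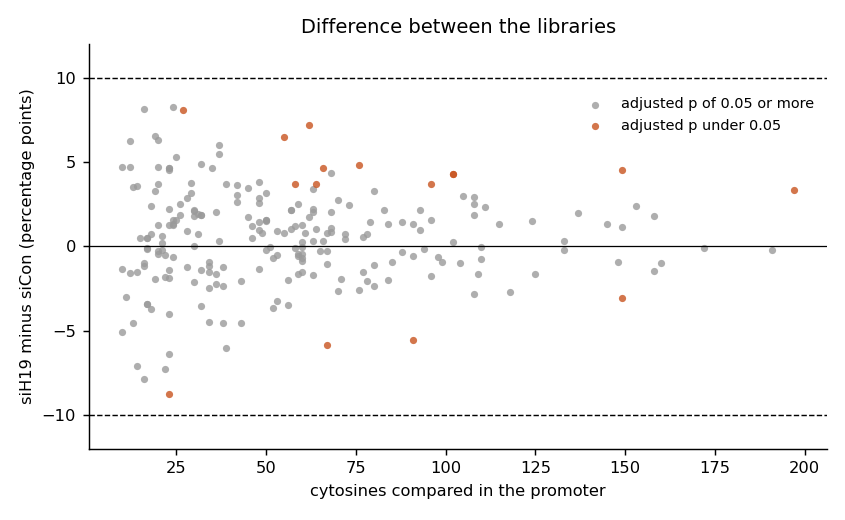
Difference between the libraries (siH19 minus siCon, percentage points, same weight on a cytosine in both) against the number of cytosines compared, for the 229 methylated promoters, with the 16 of adjusted p under 0.05 in orange and dashed lines at 10 points either way. All points lie between -8.76 and 8.26, and the spread narrows as more cytosines are compared.

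Bmp8b shows how the choice of weights matters. Its level was 78.6% in siCon (76.7% to 80.3%) and 73.8% in siH19 (72.0% to 75.5%), yet the same-weight difference over its 102 cytosines was 0.283 points (chi-square test, adjusted p = 1.00). Among promoters of all gene types with 50% or more in both libraries, 8 of 1632 were called (0.490%), and their median difference was 0.362 points. In the flanks of the methylated promoters the same-weight difference was 0.432 points upstream and 0.709 downstream, and at the restriction-site cytosines it was 1.78 points.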

How the data were processed

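CpG methylation was measured in 1 siCon and 1 siH19 myotube library by reduced representation bisulfite sequencing after digestion with TaqαI and MspI. According to the methods, the authors used Bismark in non-directional mode for alignment and methylation calls and discarded filled-in bases. Values at cytosines of the rebuilt strand are nevertheless present in the deposited data. In the other promoters they stood at 93.7% in siCon and 95.9% in siH19, beside 8.66% and 7.06% on the strand that is not rebuilt. How bases were trimmed on each strand was not tested. The submitters' processing notes name bcl2fastq 1.8.4 and mm10. All 6041258 cytosines lay on CpGs of GRCm38. The deposited text field of each cytosine gave methylated and total reads, and the deposited score, the level on a fixed scale, was used only as a check and matched in 100% of entries. Removal of duplicate reads was not given in the sources used here. Genes came from GENCODE vM21 and printed sequences from the RefSeq GRCm38.p6 genome.

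A cytosine was used where both libraries had 5 or more reads on it, strands apart. Wilson 95% intervals cover counting error alone, with calls at each cytosine taken as independent. Python 3.11.15, scipy 1.17.1 and statsmodels 0.14.6 were used. Tests were tried on simulated data in which every cytosine was drawn independently. The same-weight difference weights a cytosine by the product of its depths over their sum. Genes named were up to 4 methylated promoters per list with the most cytosines, the 3 nearest the limit on either side, the 5 with the most CpGs, the 4 lowest and 4 highest cores with at least 5 cytosines, and the genes followed up by the study. Others were named after their values were seen. Called promoters would have been named too, but there were 0. The promoters and gene lists were chosen with earlier results of these data known. The name patterns of the transcription factor and solute carrier lists were corrected after their matches were seen, which removed unrelated genes and added Nkx genes. Alternatives covered read minimum, restriction sites, window, repeats, limits, weights, strands, depth and test.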

Additional observations from a re-analysis of the deposited data

How the results depend on the processing

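With a limit of 40% in place of 50%, 347 promoters were methylated, and with 60% there were 148. The other 5 alternatives gave 212 to 300, the latter with all restriction-site cytosines kept, filled-in ones included. Against 0 called, a minimum of 10 reads per cytosine called 1 promoter, Sema4f (11.3 points, chi-square test, adjusted p = 0.0498). The set was kept as chosen at 5 reads. Over the 11 cytosines left at 10 reads Sema4f had 47.5% in siCon and 59.4% in siH19, so it fell under the limit of 50%. A minimum of 5 points called 6. For these settings the share over all tested promoters was not counted. Fisher's exact test on summed reads called 4 (Hoxc8, Marveld3, Ntsr2 and Ppp1r36), and 1.93% of all tested promoters. Ntsr2 was lower by summed reads, from 66.3% to 51.9%, but its same-weight difference was 1.25 points. The 6 other alternatives called 0. The mean difference stayed between 0.439 and 0.758 points in all 7 alternatives. Of the 16 promoters with an adjusted p under 0.05, 15 kept their direction in 8 of 8 settings, and Gm45844 turned to -0.300 points by read-weighted levels. All settings used the same 2 libraries, and some left a promoter's cytosines unchanged. Rprm, for example, stayed at -8.76 points without repeats and without the deepest 1% of cytosines. A kept direction is therefore no separate support. In the quasi-binomial test, which gave 0 of the 229 an adjusted p under 0.05, all 16 were above 0.05, the lowest being Hs3st4 at 0.0926. Some also passed 0.05 in the chi-square test under another setting. Dsc2 had an adjusted p of 0.562 within 500 bp of the start, and Gm45844 had 0.795 without the deepest 1% of cytosines. Restriction-site cytosines had 52.1% in siCon and 54.5% in siH19 with fragments of 30 to 300 bp, and 52.5% and 54.6% with at least 10 reads. Pooled flank levels were 53.8% in siCon and 60.5% in siH19 upstream, and 39.5% and 42.3% downstream. At 10 reads they were 52.5% and 59.6% upstream and 37.8% and 40.7% downstream. Between 1 and 2 kb they were 53.2% and 61.3% upstream, and 45.9% and 47.5% downstream. With the same weight on a cytosine in both libraries, differences at 10 reads were 0.584 points upstream and 0.767 downstream. Between 1 and 2 kb they were 0.388 and 1.04 points. The cause of these shifts was not tested. No paired analysis was possible because there was 1 library per group, which also leaves no replicate to leave out. Depth limits single promoters, with 153 reads summed over cytosines in the shallowest.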
